A study of Mus musculus with 6 samples.

Results

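The Myc locus was described through the 168 accessible peaks, of 175929 in the deposited table, that lay wholly within chr15:61900000-64000000 of the mouse genome build mm10. This window of 2.1 Mb spans Myc, the long noncoding RNA gene Pvt1 and a far downstream region known to carry enhancers of blood cells. The members were taken by position alone. Accessibility came from ATAC-seq, where a transposase cuts and tags DNA that is free of packed nucleosomes, in leukaemia cells driven by AE9a, a truncated AML1-ETO fusion protein that blocks the maturation of blood progenitors. The cells of both groups were Usp18+/f UBCER-Cre, that is, with a floxed allele and an intact allele of Usp18, an enzyme that removes ISG15 from proteins and restrains interferon signalling, and with a Cre recombinase that is expressed from the ubiquitin C promoter in all tissues and needs tamoxifen to become active. They carried GFP with AE9a, were grown in recipient mice, and were sorted from spleen as Lin- c-Kit+ GFP cells on day 3 counted from the first injection. The oil group (replicates 1, 2 and 4) is labelled Usp18+/f and the tamoxifen group (replicates 1, 3 and 4) Usp18+/D, the floxed allele being deleted. All animals of the tamoxifen group received the drug and carried Cre, so the drug, Cre activity and the loss of the allele cannot be told apart here. The study's methods describe adult mice of both sexes. They mention 3 mice per group in one place and duplicate ATAC-seq in another, and no label says that each library came from a different mouse, so p-values measure the spread between these libraries, which may be technical in part.

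MYC is a transcription factor that pairs with MAX at E-box sequences and drives genes of ribosome biogenesis, metabolism and cell division. It is needed by normal blood progenitors and by most leukaemias. Its gene lies in a long stretch with few other coding genes. Pvt1, its neighbour, contains enhancers that contact the Myc promoter in several tissues. In blood cells, Myc also depends on a cluster of enhancers more than a megabase downstream, where factors such as RUNX1, PU.1, GATA2 and C/EBP proteins and the remodeller SMARCA4 have been found.

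The libraries held 57358371 to 74667821 mapped tags, and 28.2% to 30.5% of them lay in peaks. Tamoxifen replicate 4 stood apart from its group. Over all peaks, the chi-square per degree of freedom, which is near 1 where libraries differ by counting noise alone, was 2.66 and 2.68 between it and the other tamoxifen libraries and 1.73 to 1.96 between it and the oil libraries. The oil libraries were closer to each other, at 1.04 to 1.22. The closest pair (replicates 1 and 2) still differed by more than counting noise (chi-square p = 7.7e-27), a difference that may be technical. Each library was counted as 1 sample, and this test cannot show that they are independent. Counts of calls are given with and without tamoxifen replicate 4. The peak over the Usp18 start site held 459, 415 and 440 normalised tags with oil and 441, 468 and 438 with tamoxifen. Since the deleted segment is not stated to include this peak, it does not check the labels. All 8 genes of a stem cell and blast list had a peak within 3 kb of a start site, Kit at 757 ± 8.80 tags with oil and 787 ± 61.1 with tamoxifen (SD, n = 3), and Cd34 at 94.6 ± 21.8 against 270 ± 60.0 (log2 fold change 1.50, adjusted p = 8.3e-12 by DESeq2). Mpo, a defining gene of myeloid blasts, was weak at 31.6 ± 2.57 tags with oil. Markers of other cells were present at 5 of 8 T cell genes (summed 182 to 224 tags with oil, 231 to 262 with tamoxifen), 4 of 7 B cell genes (169 to 189, 186 to 226), 2 of 8 mature myeloid genes (57.5 to 58.5, 46.6 to 84.7), all 5 mast cell genes (745 to 782, 755 to 902) and 5 of 6 erythroid genes (569 to 596, 461 to 587, led by Klf1). The mast cell sum was led by Gata2 and Hdc, at means of 326 and 293 tags with oil. Ms4a2, Cpa3 and Fcer1a held 68.4, 39.2 and 38.9. Hbb-bs, Cd3d, Cd79b, Ms4a1, S100a8 and Ly6g, which define erythroid, T, B or mature myeloid cells, had no start-site peak. The part of other cells in the results at Myc was not tested.

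Sequences of 10 member peaks are shown because the description below turns on them. Each is the middle 200 bases of its peak, read 5′ to 3′ from the RefSeq copy of build GRCm38.p6 (the assembly of mm10), with the distance of the peak centre from the Myc start site in its name. Capitals mark matches, on either strand, to the letters searched for 9 motifs. The RUNX proteins were represented by the letters TGTGGT. The GATA factors were represented by AGATAA in the same way. For the ETS family the letters were AGGAAGT throughout. The AP-1 dimers were represented by the palindrome TGANTCA with any middle base. C/EBP proteins were represented by TTGCNNAA, with any base at each N. MYC and its partner were represented by the E-box CACGTG. The interferon element ISRE was represented by TTTCNNTTT on the same terms. NF-kB was represented by GGGANTTTC and no other form. The insulator protein CTCF was represented by the core letters AGGNGGC only. A match describes letters and is not a measured binding site. The matches of different motifs may overlap.
past Myc, 7 kb (chr15:61992260-61992459, plus strand): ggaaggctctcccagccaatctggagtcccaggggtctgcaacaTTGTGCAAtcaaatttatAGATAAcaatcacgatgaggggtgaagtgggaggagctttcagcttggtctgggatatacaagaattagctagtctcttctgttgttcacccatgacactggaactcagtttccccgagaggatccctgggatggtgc
past Myc, 8 kb (chr15:61993181-61993380, plus strand): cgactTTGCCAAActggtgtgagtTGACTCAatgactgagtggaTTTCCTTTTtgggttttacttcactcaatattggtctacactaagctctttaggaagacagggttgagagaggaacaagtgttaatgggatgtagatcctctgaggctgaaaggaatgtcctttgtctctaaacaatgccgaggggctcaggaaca
past Myc, 10 kb (chr15:61995199-61995398, plus strand): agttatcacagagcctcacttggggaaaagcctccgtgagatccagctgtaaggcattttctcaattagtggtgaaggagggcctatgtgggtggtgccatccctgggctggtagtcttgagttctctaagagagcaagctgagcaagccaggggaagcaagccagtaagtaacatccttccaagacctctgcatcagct
The 3 intergenic sequences above lie past the 3′ end of Myc, where all neighbouring peaks had lower means after tamoxifen. Strongly accessible introns of Pvt1 come next.
Pvt1 intron, 236 kb (chr15:62221117-62221316, plus strand): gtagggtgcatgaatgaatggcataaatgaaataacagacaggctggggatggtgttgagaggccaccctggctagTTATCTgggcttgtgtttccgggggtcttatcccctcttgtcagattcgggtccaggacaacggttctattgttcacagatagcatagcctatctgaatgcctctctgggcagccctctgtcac
Pvt1 intron, 238 kb (chr15:62223184-62223383, plus strand): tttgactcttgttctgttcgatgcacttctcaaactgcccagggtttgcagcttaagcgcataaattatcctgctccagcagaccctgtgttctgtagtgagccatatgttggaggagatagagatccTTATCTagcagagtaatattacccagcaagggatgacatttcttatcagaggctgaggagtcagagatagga
The next pair lies alone in an otherwise peak-poor megabase past Pvt1, and its values turn on tamoxifen replicate 4.
past Pvt1, 1355 kb (chr15:63340521-63340720, plus strand): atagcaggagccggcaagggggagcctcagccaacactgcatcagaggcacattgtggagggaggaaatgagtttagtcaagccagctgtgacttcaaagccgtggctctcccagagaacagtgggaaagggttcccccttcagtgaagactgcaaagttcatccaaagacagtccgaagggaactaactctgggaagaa
past Pvt1, 1357 kb (chr15:63341844-63342043, plus strand): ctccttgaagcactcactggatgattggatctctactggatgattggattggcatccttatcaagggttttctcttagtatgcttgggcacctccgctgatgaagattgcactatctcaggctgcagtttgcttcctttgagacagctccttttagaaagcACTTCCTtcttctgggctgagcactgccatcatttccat
The last set comes from the far downstream zone, where the blood enhancers are known.
far downstream, 1608 kb (chr15:63592869-63593068, plus strand): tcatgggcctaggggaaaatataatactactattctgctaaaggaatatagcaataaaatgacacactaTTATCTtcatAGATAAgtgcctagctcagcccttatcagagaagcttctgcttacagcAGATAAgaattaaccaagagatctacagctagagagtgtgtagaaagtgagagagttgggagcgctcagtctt
far downstream, 1616 kb (chr15:63601647-63601846, plus strand): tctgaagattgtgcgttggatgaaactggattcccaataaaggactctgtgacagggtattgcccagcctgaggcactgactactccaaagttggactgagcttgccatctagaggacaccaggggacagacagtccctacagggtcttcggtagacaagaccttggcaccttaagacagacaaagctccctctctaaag
far downstream, 1786 kb (chr15:63771643-63771842, plus strand): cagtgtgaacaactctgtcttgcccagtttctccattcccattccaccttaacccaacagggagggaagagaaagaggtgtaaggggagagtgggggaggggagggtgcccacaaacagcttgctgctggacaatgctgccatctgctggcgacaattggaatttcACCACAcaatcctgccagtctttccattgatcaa
Both Pvt1 introns shown held a GATA match, and the far peak at 1608 kb held 3. The letters AGATAA occurred in 29 of 168 members (17.3%) and in 15.1% of all 175738 peaks whose window could be read. Among peaks over 3 kb from a start site, they were in 17.7% of 147 members and in 17.6% of all such peaks. RUNX letters were in 15.6% and 20.9% of the same sets. RUNX letters were found in 28 members (16.7% against 18.7% of all peaks), ETS in 14 (8.33% against 9.71%), AP-1 in 12 (7.14% against 6.61%), C/EBP in 12 (7.14% against 6.44%), ISRE in 18 (10.7% against 6.73%), NF-kB in 1 (0.595% against 0.712%) and CTCF in 35 (20.8% against 21.96%). The E-box, the sequence that MYC itself binds, was in 2 members (1.19%) and in 4.59% of all peaks. Among the 10 far downstream peaks, RUNX, GATA and AP-1 letters were each in 1, CTCF letters in 2, and ETS, C/EBP, E-box, ISRE and NF-kB letters in 0. The median GC content of the windows was 48.8% for members and 50.5% for all peaks.

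The accessible elements were crowded around Myc and Pvt1 and sparse beyond. The window was divided by distance from the RefSeq start of Myc (position 61985341) into 7 zones. Within 3 kb of that start, 7 peaks held 19.2% of all tags of the window with oil. The stretch from there to the start of Pvt1 held 19 peaks, and the 222 kb of the Pvt1 gene held 104 peaks with 52.9% of the tags. This was 46.8 peaks per 100 kb, against 11.1 over chromosome 15 and 6.45 over the genome. When the chromosomes were cut into 12255 tiles as long as Pvt1, 160 (1.31%) held 104 peaks or more, 34 of them among the 468 tiles of chromosome 15, and the median tile held 3. Past Pvt1, 15 peaks were spread over more than a megabase (1.22 per 100 kb), with gaps of 343 and 518 kb that held no peak. The far downstream zone, 1.5 to 1.9 Mb from Myc, held 10 peaks and 2.39% of the tags. A further 11 peaks lay beyond it, at the distal part of the Gsdmc gene cluster and at Fam49b (Cyrib), and 2 lay upstream of Myc. The genes Gsdmc, Gsdmc2 and Gsdmc3 lie within the far downstream zone by RefSeq positions. Its peaks at chr15:63828622-63828895 and chr15:63829085-63829301 lie inside Gsdmc2.

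**Figure D1:**
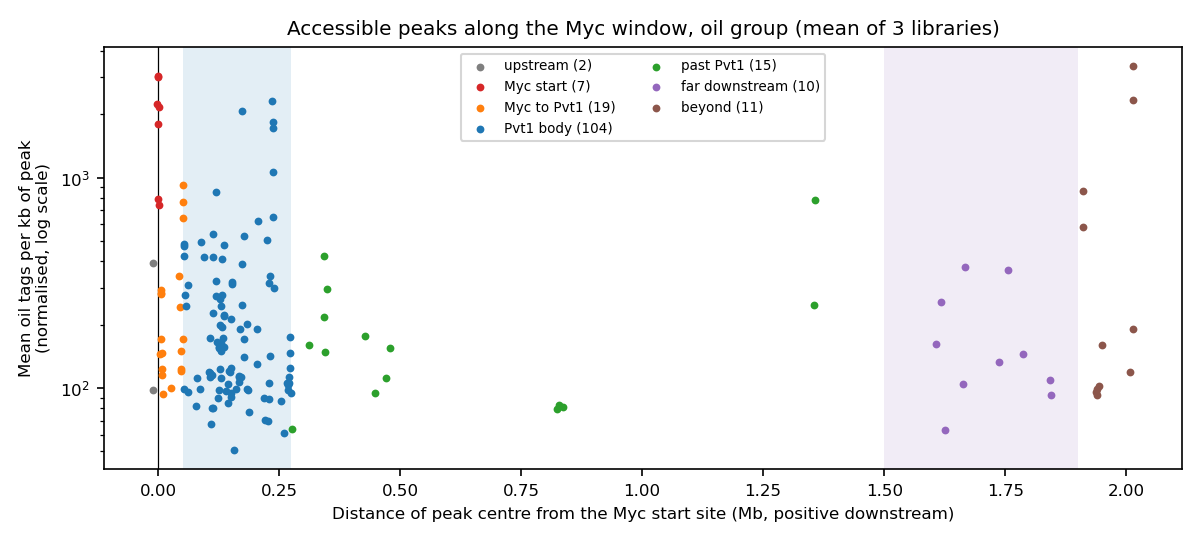
Each point is a member peak: distance of its centre from the Myc start site (Mb) against its mean oil signal (normalised tags per kb of peak, log scale, n = 3), coloured by zone with the number of peaks in brackets. Blue shading marks the Pvt1 gene and purple shading the far downstream zone, whose 10 peaks reach 375 tags per kb at most while Myc, Pvt1 and Fam49b have peaks at 3051, 2326 and 3395.

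By the median level per length, the Myc start stood apart from the other zones. Single peaks of some other zones were also strong. The peak nearest the Myc start site, chr15:61985086-61985291, had 3051 normalised tags per kb with oil, higher than 98.7% of all peaks. The strongest Pvt1 intron, at 236 kb, had 2326. The promoter of Fam49b, which codes for a regulator of RAC1, had 3395. The highest far downstream peak, chr15:63652590-63652795, reached 375 tags per kb and exceeded 72.7% of all peaks, and the lowest exceeded 2.13%. The median was 139 tags per kb in the far zone, 153 in the Pvt1 body and 2170 at the Myc start, beside 169 for all peaks. It was 171 between Myc and Pvt1, 155 past Pvt1 and 161 beyond the far zone. In bulk libraries, fewer cells with an open site and less opening in each cell cannot be told apart.

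With all 6 libraries, no member peak was called as different between the groups by DESeq2. At the study's limits (more than 2-fold and adjusted p under 0.05 by DESeq2), 0 of 168 members passed, where 0.654% of all peaks did. With no limit on fold change, 0 members passed, against 1.39% of all peaks, and the smallest adjusted p of a member was 0.212. At an unadjusted p under 0.05, 4 members were higher after tamoxifen (2.38%) against 6.18% of all peaks, and 6 were lower (3.57%) against 2.84%. By edgeR's quasi-likelihood test, 24 members (14.3%) had an unadjusted p under 0.05, against 17.6% of all peaks. An adjusted p under 0.05 was found by edgeR in 2 members (1.19%, against 2.92%), both past the Myc 3′ end and both lower, and 1 of them was called at the study's limits (0.595%, against 1.03%). Both were on the peak list of the oil group alone. The groups did not overlap in 16 members that were higher after tamoxifen (9.52%, against 11.8% of all peaks) and in 21 that were lower (12.5%, against 9.99%). The median log2 fold change of the members, tamoxifen over oil, was -0.05, and 104 of 168 (61.9%) lay below 0, where 50.3% of all peaks did.

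**Figure D2:**
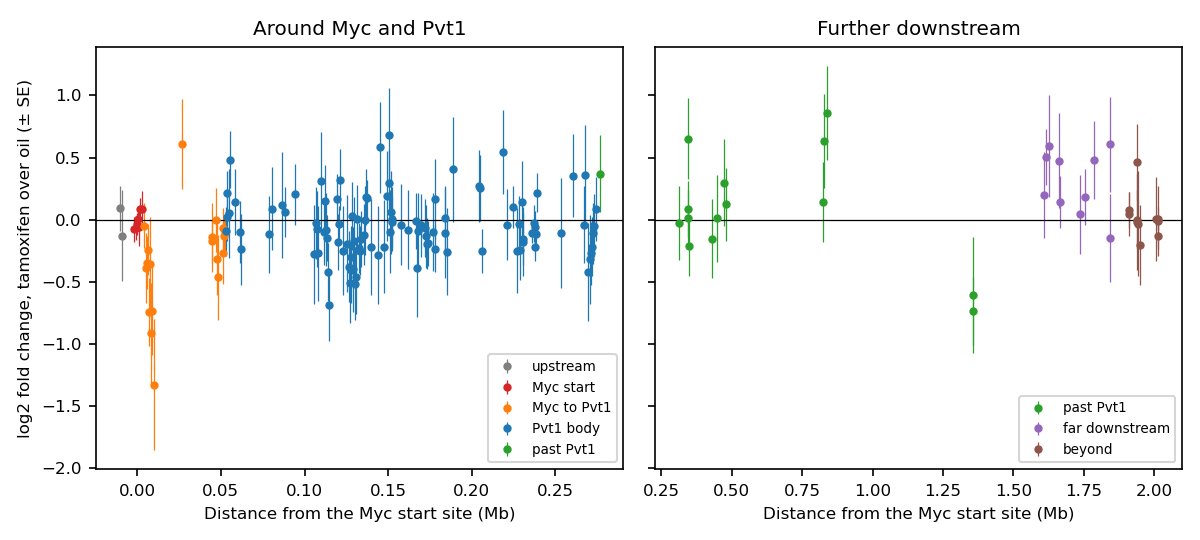
Points are log2 fold changes (tamoxifen over oil, DESeq2, bars ± SE) of the member peaks against distance from the Myc start site (Mb), in 2 panels with different distance scales. The Myc start lies at 0, the peaks just past it reach -1.33, the pair at 1.36 Mb lies at -0.74 and -0.61, and 9 of 10 far downstream peaks lie above 0.

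At the Myc promoter, no difference beyond the spread of the libraries was resolved. The peak nearest the start site held 653, 636 and 597 normalised tags in oil replicates 1, 2 and 4 and 617, 628 and 596 in tamoxifen replicates 1, 3 and 4. The groups overlapped, and the log2 fold change was -0.03 (SE 0.087, 95% interval -0.21 to 0.14, DESeq2 adjusted p = 0.986). The peak over the 5′ part of the first exon, chr15:61985482-61985703, held 672 ± 35.5 tags with oil and 673 ± 35.3 with tamoxifen. That in the first intron, chr15:61986993-61987276, held 616 ± 37.1 and 653 ± 16.9 (log2 fold change 0.08, 95% interval -0.09 to 0.26). Over the 7 peaks of the promoter zone the log2 fold changes ran from -0.08 to 0.09. Their summed tags were 3339, 3282 and 3099 with oil and 3241, 3310 and 3115 with tamoxifen, and those groups overlapped too.

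Past the 3′ end of Myc, a run of weak peaks pointed the same way. The stretch was chosen after its values were seen, so they are a description. All 8 peaks centred within 10 kb of the gene's end had a log2 fold change below 0 (-1.33 to -0.24, median -0.56). Of these, 4 had an unadjusted p under 0.05 by DESeq2 and groups that did not overlap. Among all peaks, 2.84% were lower at that p and 9.99% were lower without overlap. Their summed tags were 466, 402 and 585 in the oil libraries and 335, 377 and 346 in the tamoxifen libraries. Every tamoxifen sum was below every oil sum, with a ratio of 0.729. Of the 8 peaks, 5 were on the oil peak list alone and 1 on the tamoxifen list alone. Since a peak on the oil list alone was detected there and not in the other group, its direction is in part set by that choice. The 4 peaks with an unadjusted p under 0.05, among them those at 7, 8 and 10 kb, were all on the oil list alone. The 2 peaks on both lists had log2 fold changes of -0.34 and -0.24, and their groups overlapped. The peak at 7 kb held 61.8, 56.6 and 74.4 tags with oil and 46.4, 35.7 and 33.5 with tamoxifen (log2 fold change -0.74, SE 0.274, DESeq2 adjusted p = 0.212, edgeR adjusted p = 0.0459). That at 10 kb, in an LTR of the MTB family, held 19.9, 15.6 and 24.2 against 7.73, 6.69 and 9.31 (log2 fold change -1.33, DESeq2 adjusted p = 0.283, edgeR adjusted p = 0.0379). Tamoxifen replicate 4 lay with its group in both. The 8 kb peak held 28.7, 27.3 and 32.3 tags against 19.3, 14.5 and 13.04. Over the whole stretch between Myc and Pvt1, 18 of 19 peaks lay below 0, where 50.3% of all peaks did. These 19 include the 8 chosen peaks, so the count is not separate from them. On the peak lists, 6 of the 19 were found with oil alone and 2 with tamoxifen alone.

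With all 6 libraries, no peak at the Pvt1 start site or in the gene body passed the adjusted threshold by DESeq2 or edgeR. The peak nearest the Pvt1 start, chr15:62037668-62037873, held 194, 193 and 186 tags with oil and 182, 154 and 199 with tamoxifen (log2 fold change -0.10, 95% interval -0.39 to 0.19). The groups overlapped, and tamoxifen replicate 4 was the highest of all. Of the 104 peaks of the gene body, 69 lay below 0, and the median was -0.09. With no overlap between groups, 8 were higher and 12 lower, beside 11.8% and 9.99% of all peaks. Their summed tags were 9140, 8754 and 8951 with oil and 8204, 7923 and 9365 with tamoxifen, so that tamoxifen replicates 1 and 3 lay below and replicate 4 above every oil library. The strongest intron, at 236 kb, lies within 3 kb upstream of the annotated start of a macroH2A pseudogene inside Pvt1. It held 962, 917 and 919 tags with oil and 829, 813 and 950 with tamoxifen (log2 fold change -0.11, 95% interval -0.27 to 0.05). The peak at 238 kb held 416, 419 and 408 against 372, 301 and 391 and did not overlap between groups (log2 fold change -0.22, 95% interval -0.44 to 0.00). Weak Pvt1 peaks went either way: that at chr15:62040490-62040711 held 50.7, 68.3 and 64.5 tags against 87.0, 94.7 and 76.4 (log2 fold change 0.48), and that at chr15:62099757-62100016 held 66.2, 56.6 and 55.5 against 25.1, 39.0 and 46.6 (-0.68).

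**Figure D3:**
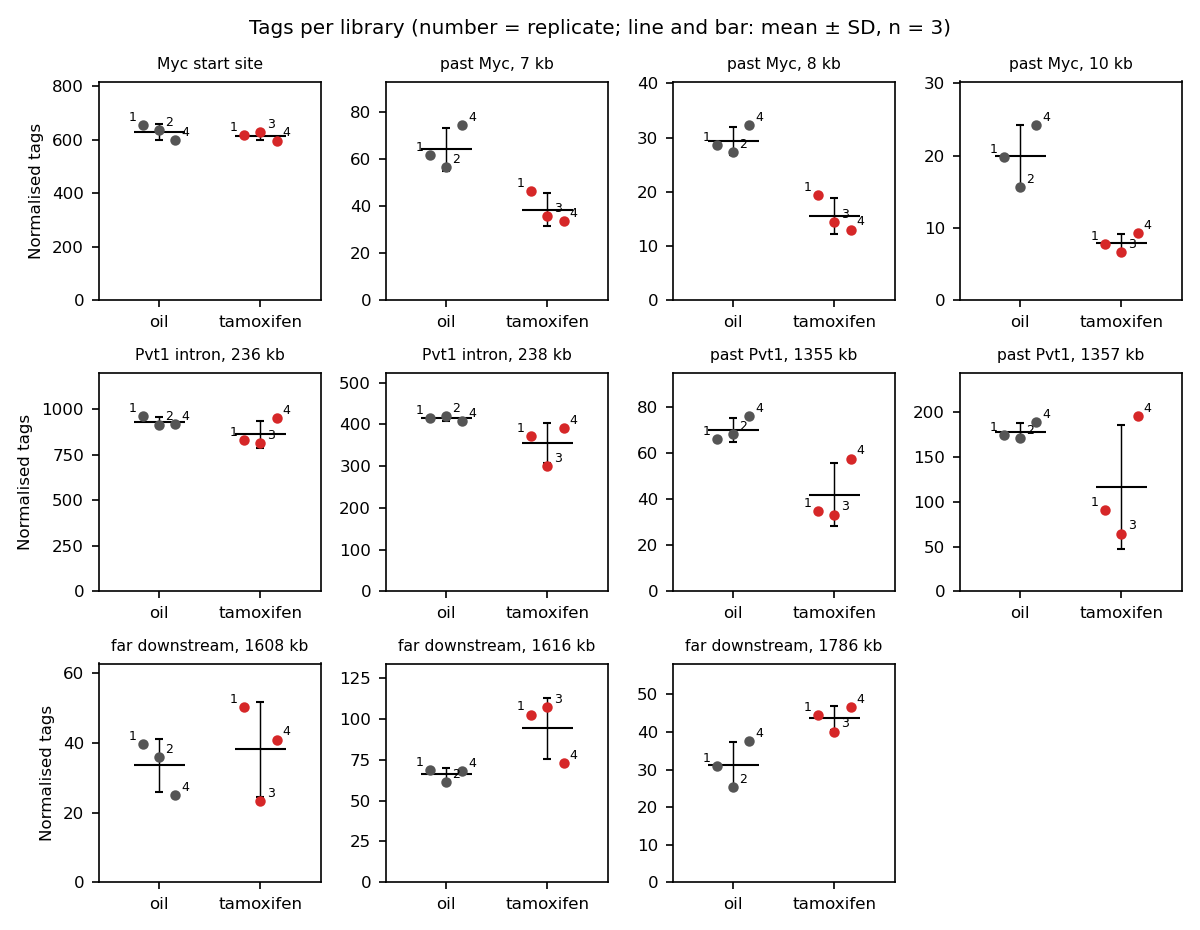
Normalised tags of the Myc start-site peak and the 10 peaks whose sequences are shown, 1 point per library labelled with its replicate number, with the mean and SD of each group (n = 3) as a line and bar. The Myc start site overlaps between groups, the 3 peaks past Myc do not, and tamoxifen replicate 4 is the highest of its group in the Pvt1 introns and in the pair past Pvt1.

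Past Pvt1, a pair of peaks at 1355 and 1357 kb lay alone between gaps of 518 and 251 kb, and there the tamoxifen libraries differed among themselves. The peak at 1355 kb held 66.2, 68.3 and 76.2 tags with oil and 34.8, 33.4 and 57.7 with tamoxifen (log2 fold change -0.74, SE 0.273, DESeq2 adjusted p = 0.212). All tamoxifen values lay below all oil values, and replicate 4 lay between the rest. The peak at 1357 kb, in an old LINE of the L3 family, held 174, 172 and 189 against 90.9, 64.6 and 195 (log2 fold change -0.61, 95% interval -1.53 to 0.31). Here replicate 4 had the highest value of all libraries. Without that library the log2 fold changes were -1.04 and -1.19, with DESeq2 adjusted p = 0.0186 and 9.1e-07, and both peaks were then called at the study's limits, as were 1.54% of all peaks. That fit gave an adjusted p under 0.05 to 3 of 168 members (1.79%) and 3.71% of all peaks. No label sets replicate 4 apart from the rest of its group. At chr15:62822252-62822557, also past Pvt1, tamoxifen replicate 1 alone reached 67.7 tags, the rest of the libraries holding 18.8 to 35.3.

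In the far downstream zone, where the blood enhancers are known, 9 of the 10 weak peaks had higher fitted levels after tamoxifen, and no single peak passed the adjusted threshold. The log2 fold changes had a median of 0.34 and ran from -0.14 to 0.61, 5 peaks were higher with no overlap (11.8% of all peaks were), and 1 was higher at an unadjusted p under 0.05 (6.18% of all peaks were). Their summed tags were 406, 411 and 397 in the oil libraries and 530, 500 and 452 in the tamoxifen libraries. Every tamoxifen sum exceeded every oil sum, with a ratio of 1.22, and replicate 4 was again the nearest to oil. The zone's share of the window's tags was 2.39% with oil and 3.03% with tamoxifen. The peak at 1616 kb held 68.4, 61.4 and 68.1 tags against 102, 107 and 72.6 (log2 fold change 0.51, SE 0.225, unadjusted p = 0.024, DESeq2 adjusted p = 0.406). That at 1786 kb held 30.9, 25.4 and 37.6 against 44.5, 40.1 and 46.6 (log2 fold change 0.48, 95% interval -0.13 to 1.09). The strongest of the zone, at 1667 kb, held 77.2, 74.1 and 80.6 against 82.2, 90.2 and 84.7 (0.15, interval -0.26 to 0.56). The GATA-bearing peak at 1608 kb held 39.7, 36.1 and 25.1 against 50.3, 23.4 and 41.0 and overlapped. On the peak lists, 8 of the 10 were found in both groups and 2 with tamoxifen alone. The direction of those 2 is in part set by that choice, and they are counted in the sums and the median above. The peaks at 1608, 1616, 1667 and 1786 kb were on both lists.

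**Figure D4:**
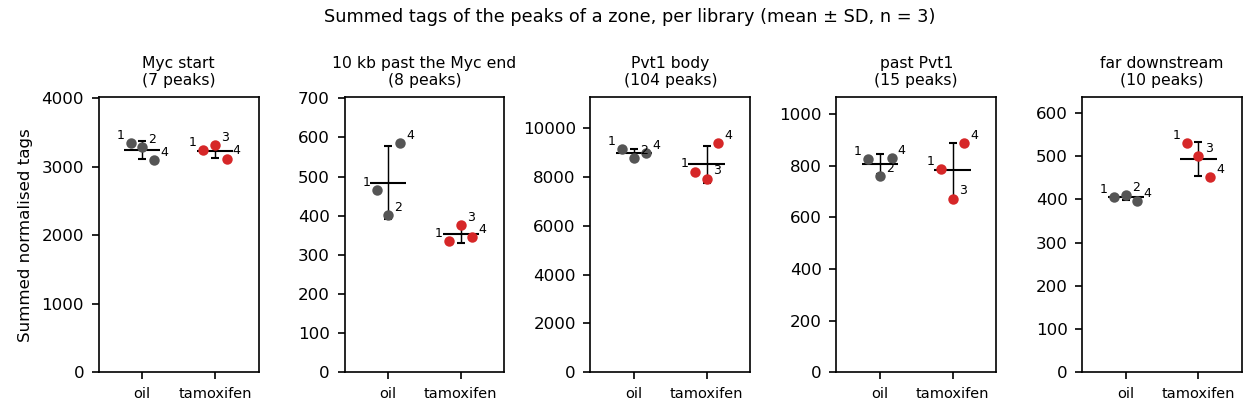
Summed normalised tags of all peaks of a zone, 1 point per library labelled with its replicate number, with mean and SD (n = 3) and axes that start at 0. The groups do not overlap past the Myc end (lower with tamoxifen) or in the far downstream zone (higher), and they overlap at the Myc start, in Pvt1 and past it.

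At the far border of the window, the Fam49b promoter peak held 717, 701 and 629 tags with oil and 688, 733 and 640 with tamoxifen (log2 fold change 0.01, 95% interval -0.17 to 0.19). The groups overlapped as at the Myc promoter. Across the 6 libraries, the member whose log2 tags were most like those of the Myc start-site peak was another peak of the same promoter, chr15:61983391-61983611 (Pearson r = 0.945), followed by the Fam49b promoter (r = 0.876). Among 12696 start-site peaks of other genes, 866 had an r over 0.9, led by Rpusd2 at 0.999. These 6 points share depth and group, so the likeness is a description.

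No promoter of the genes around MYC passed the adjusted threshold by DESeq2. All 13 genes of the MYC network list, which holds MYC's relatives, its partner MAX and the MXD and MNT proteins that compete for MAX, had a start-site peak. None had an adjusted p under 0.05 by DESeq2, and the median log2 fold change was 0.02. Mycl, a paralogue of Myc, was the one with an unadjusted p under 0.05 by DESeq2, where 6.18% of all peaks were higher at that limit. It held 234, 224 and 220 tags with oil and 300, 265 and 296 with tamoxifen (log2 fold change 0.35, DESeq2 adjusted p = 0.190, edgeR adjusted p = 0.0342). Its groups did not overlap. Max held 1169 ± 83.6 and 1187 ± 71.5 tags. All 30 MYC target genes on the list had a peak. In this list 0 passed at an adjusted or an unadjusted p under 0.05 by DESeq2, 0 at an adjusted p by edgeR, and log2 fold changes ran from -0.15 (Apex1, a DNA repair endonuclease) to 0.18 (Tert, the telomerase catalytic subunit). Ncl, which codes for nucleolin, held 860 ± 52.1 against 858 ± 44.7 tags, and Cdk4, a kinase of the G1 phase, 678 ± 50.6 against 678 ± 43.8. Of 12 factors known at the blood enhancers, all had a peak and 0 passed the adjusted threshold by either tool. By DESeq2, 2 had an unadjusted p under 0.05, both higher, as were 6.18% of all peaks. Meis1, a homeobox factor of stem cells, held 68.4, 44.9 and 50.2 tags against 94.7, 82.4 and 75.4 (log2 fold change 0.64, DESeq2 adjusted p = 0.236). Cebpa, a myeloid factor, held 153, 136 and 159 against 186, 195 and 176 (0.31, adjusted p = 0.515). Runx1, Gata2, Spi1 and Smarca4 had overlapping groups, with log2 fold changes between -0.04 and 0.09.

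**Figure D5:**
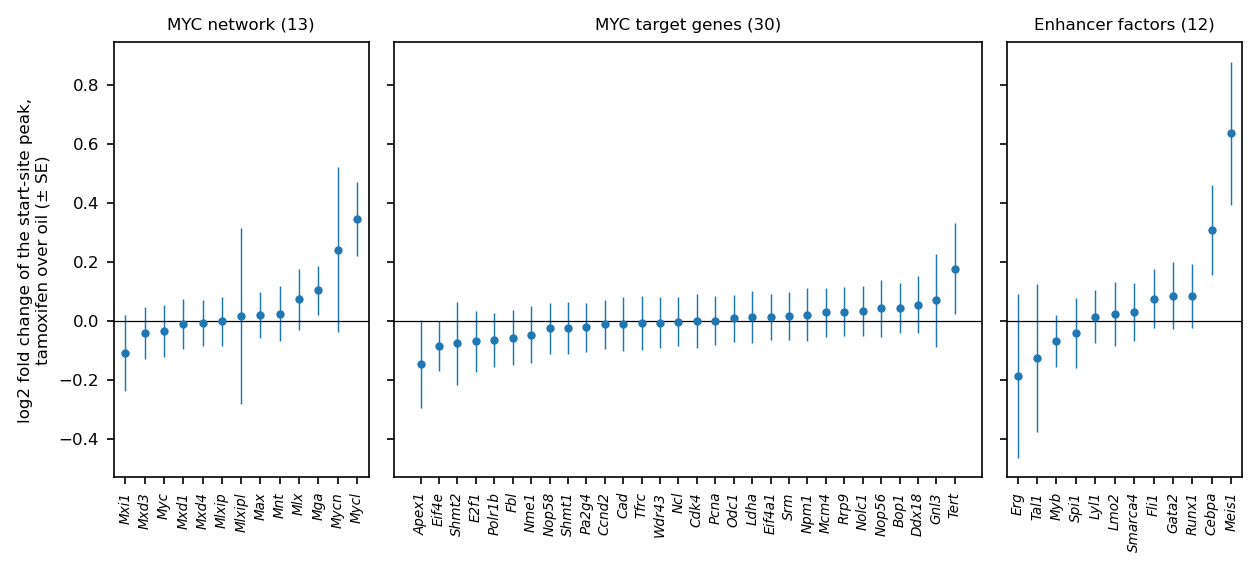
Log2 fold change (tamoxifen over oil, DESeq2, bars ± SE) of the start-site peak of each gene of 3 lists, ordered by value within a list, with the number of genes in brackets. The 30 MYC target genes lie between -0.15 and 0.18, and Meis1 at 0.64 is the highest of all.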

How the data were processed

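ATAC-seq was performed on permeabilised nuclei of sorted cells. Per the study's methods and the submitters' processing notes, the authors mapped reads to mm10 with Bowtie2, called peaks in HOMER, merged the peak lists of both groups and counted tags in each merged peak. What was deposited is unscaled: raw tags for every peak in every library, with at most 3 tags per position, before any normalisation. Since the deposited values come in steps of 0.5, they were handled like expected counts, though no model estimated them, and were rounded and fitted over all 175929 peaks with DESeq2 1.42.0 (Wald test, Benjamini-Hochberg adjustment), as in the study but with promoter peaks kept. edgeR 4.0.16 was the alternative, and both were tested on simulated data. Values printed are tags divided by DESeq2 size factors, and intervals are 95% Wald intervals. Totals, a filter on low tags (at least 10 in at least 3 libraries) and each library in turn were varied. Gene positions and sequences came from RefSeq on GRCm38.p6, where no peak ran past a chromosome end. List genes were matched to the peak nearest a start site within 3 kb. Named peaks were those at the start sites, the 5 of smallest p in each direction and the highest per kb of each zone. The window, whose position alone set the members, and the lists were chosen with earlier results of these data known. Promoter sequences of Myc and Pvt1 were not used here, and some listed genes and a member peak's sequence and values are not reported here. The peaks' score and annotation columns were used as deposited.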

Additional observations from a re-analysis of the deposited data

How the results depend on the processing

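The call that no member passed the study's limits held under the alternatives tried except edgeR, which called 1 (the peak at 10 kb), and leaving out a library, which gave 0 to 2, the 2 without tamoxifen replicate 4. The 10 members with an unadjusted p under 0.05 became 24 by edgeR, 6 when only peaks nearest to Myc or Pvt1 were kept, and 2 to 18 on leaving out a library (4 without oil replicate 1, 2 without oil replicate 4, 4 without tamoxifen replicate 1, 18 without tamoxifen replicate 4). The window median moved from -0.05 to -0.12 when only peaks nearest to Myc or Pvt1 were kept. 1 MYC network promoter, Mycl, passed by edgeR. The far downstream median stayed between 0.29 and 0.37, that past the Myc end between -0.67 and -0.42 (alternatives for the latter chosen after seeing the data), that of the Myc start-site peak between -0.07 and -0.01 and that of the Pvt1 start-site peak between -0.18 and 0.00. Replicate numbers 1 and 4 occur in both groups, and no label says that they pair libraries. Deviations from the group means of same-numbered libraries correlated at -0.05 (number 1) and 0.05 (number 4) over 166688 peaks. With the replicate number as a block on those 4 libraries, 0 members had an unadjusted p under 0.05 and 0 were called. In that fit 52 of all peaks had an adjusted p under 0.05, against 2448 in the unblocked fit of all 6 libraries. The block and the smaller number of libraries were not varied apart.

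Signs turned for some peaks near 0. With tags in peaks, Fam49b (0.0099) became -0.0033 and the Myc first exon peak (0.0024) became -0.011. The latter became -0.00083 with intensity-dependent scaling. With the replicate block, Fam49b became -0.020, the first exon peak -0.067, the peak at 51.5 kb (-0.066) 0.029 and that at 1910 kb (0.080) -0.036. On leaving out each library, Fam49b ran from -0.047 to 0.061, the first exon peak from -0.039 to 0.046, the peak at 51.5 kb from -0.16 to 0.029, the upstream peak at -9.30 kb from -0.28 to 0.0100, the peak at 343 kb from -0.14 to 0.23 and that at 1608 kb from -0.045 to 0.45. The cause was not tested.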

Other observations

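Chromosome 15 as a whole held 11.1 peaks per 100 kb, a density second to that of chromosome 11 (11.6) among the chromosomes. The median signal of its peaks, 149 normalised tags per kb with oil and 151 with tamoxifen, was the lowest of all chromosomes, as was that of its promoter peaks, 220 and 217. The Myc window held 8 peaks per 100 kb. Its distal end crosses the Gsdmc genes, relatives of the pore-forming gasdermins of pyroptosis. The nearest annotated start of 12 peaks was that of Gsdmc or of its relatives Gsdmcl2 and Gsdmcl-ps. Among these were intergenic peaks of the far downstream zone described above. The strongest of the 12 lay close together in an intron, inside Gsdmc4 by RefSeq positions and nearest to the start of Gsdmcl2. They held 187 ± 17.4 and 118 ± 4.21 normalised tags with oil and 197 ± 12.4 and 122 ± 15.2 with tamoxifen (SD, n = 3 each). Their log2 fold changes were 0.08 (95% interval -0.20 to 0.36) and 0.05 (-0.30 to 0.40), and none of the 12 had an unadjusted p under 0.05 by DESeq2.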
